A study of Mus musculus with 24 samples.

Results

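The genes described here are 38 genes of the cell cycle and of DNA replication. They were taken by gene symbol from a deposited table of 38215 genes, and all 38 were found. Their RNA was measured by RNA sequencing in dorsal root ganglia, the clusters of sensory nerve cell bodies beside the spinal cord. Mice of 3 strains, labelled C57, CAST and DBA, gave ganglia in the naive state and 5 days after the sciatic nerve, which carries axons of these cells, had been crushed. With 4 libraries per strain and state there were 6 groups and 24 libraries, and the ganglia taken after crush are called injured below. The series design calls the 4 libraries of a group biological quadruplicates, and the labels do not say whether a library held RNA of 1 mouse or of several. The labels name no transgene or drug for any group. Their protocol text sets crush against a sham operation whereas the sample labels read naive, so whether the uninjured mice were operated on is not settled. The deposited table held no libraries beyond these 24.

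A dividing cell copies its DNA in S phase and separates the copies in mitosis. Before S phase, Cdc6 and Cdt1 load the ring of MCM proteins (Mcm2 to Mcm7) onto replication origins, Cdc45 turns the ring into a working helicase, and Pcna clamps the polymerases to the DNA. Cyclins switch on their partner kinases to move the cell from stage to stage, the Aurora, Polo and Bub kinases control the spindle, and the anaphase-promoting complex with Cdc20 ends mitosis. E2F factors are known to switch on S phase genes, while Mybl2 and Foxm1 act with the MuvB complex on mitotic genes. Sensory neurons of the adult ganglion do not divide, while its glia, macrophages, fibroblasts and vessel cells can, and RNA of these genes is used as a sign of such division.

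Because the mitotic and the replication members are described apart below, short promoter words known to be read by MuvB and by E2F, and the CCAAT box besides, were looked up in RefSeq promoters of the GRCm38.p6 assembly, the build also called mm10. Each promoter ran from 250 bases before to 50 bases after the gene start, 300 bases in all, and 32 of the 38 members were matched by symbol. Tpx2, Ccne2, Ccna2, Foxm1, Mcm4 and Aurkb were not matched. The words were the cell cycle homology region or CHR (TTTGAA or TTCGAA), E2F words (TTTGGCGC, TTTCCCGC, TTTGCCGC or TTTCGCGC) and the CCAAT box, each read on both strands and allowed to overlap. The stretches printed here are examples, 3 of mitotic or proliferation genes and 2 of MCM genes. Each is the 160 bases before the RefSeq gene start, 5′ to 3′ on the gene's strand, with capitals for every match of any of these words on either strand.
Top2a (chr11:99024190-99024349, minus strand): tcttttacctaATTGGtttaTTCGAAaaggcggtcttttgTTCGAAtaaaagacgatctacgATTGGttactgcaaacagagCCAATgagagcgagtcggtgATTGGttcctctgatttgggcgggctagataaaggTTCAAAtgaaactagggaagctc
Mki67 (chr7:135716380-135716539, minus strand): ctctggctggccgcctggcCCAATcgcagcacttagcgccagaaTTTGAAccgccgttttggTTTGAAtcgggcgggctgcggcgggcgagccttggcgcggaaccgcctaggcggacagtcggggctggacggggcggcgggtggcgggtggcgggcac
Ccnb2 (chr9:70421555-70421714, minus strand): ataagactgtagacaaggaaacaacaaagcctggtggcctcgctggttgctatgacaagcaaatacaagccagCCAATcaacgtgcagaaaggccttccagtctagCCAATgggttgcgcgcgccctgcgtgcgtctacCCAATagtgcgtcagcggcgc
Mcm6 (chr1:128359706-128359865, minus strand): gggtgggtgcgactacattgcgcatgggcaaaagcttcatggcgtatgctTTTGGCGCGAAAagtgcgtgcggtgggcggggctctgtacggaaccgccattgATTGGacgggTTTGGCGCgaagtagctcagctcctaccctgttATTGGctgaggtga
Mcm5 (chr8:75109349-75109508, plus strand): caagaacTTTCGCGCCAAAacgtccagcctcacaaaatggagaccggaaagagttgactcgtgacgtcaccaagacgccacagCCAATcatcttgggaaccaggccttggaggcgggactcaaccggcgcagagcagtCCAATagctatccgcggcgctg
In the Top2a stretch 3 CHR words stand among 4 CCAAT boxes, and the Mki67 stretch holds 2 CHR words and 1 CCAAT box. The Ccnb2 stretch holds 3 CCAAT boxes, and its TTTGAA words lie outside it, with their first bases at -167 and 4 from the gene start. Mcm6 and Mcm5 hold E2F words and CCAAT boxes and no CHR word, and 2 of the E2F words overlap in each gene.

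The mitotic set of these counts leaves out the cyclins and Cdk1, which were in neither set. The counts are of genes, and a gene with several promoters was counted if any of them matched. A CHR word was found in 11 of the 14 matched mitotic members (78.6%) and in 3 of the 13 matched replication members (23.1%). Of all 27025 genes with a promoter, 5854 (21.7%) held a CHR word. An E2F word was found in 0 of the 14 mitotic members and in 6 of the 13 replication members (46.2%). It stood in 704 of the 27025 genes (2.6%). Outside both sets, Cdk1 held the E2F word TTTCGCGC with its first base at -131 beside 2 CHR words, and Ccnb1 held no CHR or E2F word. At least 1 CCAAT box stood in 24 of the 32 matched members (75.0%) and in 41.1% of all genes with a promoter. Of the matched members 17 (53.1%) had 2 or more CCAAT boxes in 1 promoter, against 13.3% of all genes with a promoter. A match describes the letters of a window and is not a measured binding site.

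The authors deposited FPKM, fragment counts scaled to library size and gene length, and the length used was the whole span of a gene with its introns. FPKM are therefore compared within a gene only: Top2a, for example, spans 31247 bases of which 9013 are exonic. Library totals worked out from the steps of low values were 51.37 to 145.45 M reads, with a median of 107.1 M. The members were sparse, and the fewest estimated reads of any member in any library were 4.3, for Ccnb1 in a naive CAST library. All 38 passed the filter, which asked for 10 or more estimated reads in 4 or more libraries. Ccnb1 had 10.7 or more reads in every injured library and at most 11.5 in naive ones, so it passed mainly through its injured groups. The tests were limma fits on log2(FPKM + 0.1) over 27065 genes and all 24 libraries. Called means a Benjamini-Hochberg adjusted p under 0.05. Log2 fold changes are on that scale and understate the change of low genes, so the ratio of mean FPKM is given beside them. Means are given ± SD with n = 4 libraries. The 10 sensory neuron markers summed to between 744.9 and 895.1 FPKM in every library, so the defining cells of the labelled tissue were present. Injured CAST replicate 1 and injured DBA replicate 1 stood apart, holding the highest value of their group for 24 and 27 of the 38 members. Naive DBA replicate 3 was highest for 15 members and also had the highest sum of muscle markers, given beside Ube2c.

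After crush many of the mitotic and replication genes were called higher, more of them in DBA and CAST than in C57. These counts are calls within each strain and do not test a difference between strains. In the interaction contrasts given below, the response was called larger than in C57 for 4 members in CAST (7.08% of all genes). In DBA it was called larger than in C57 for 22 members (4.72%). In C57 18 of the 38 members were called higher (18.7% of all genes were) and 1 lower (20.7%). In CAST 28 were called higher (25.8% of all genes) and 1 lower (21.5%). In DBA 33 were called higher (26.6% of all genes) and 1 lower (24%). The median ratio of injured to naive mean FPKM over the members was 1.31, 1.63 and 2.04 in C57, CAST and DBA. The median log2 fold change over the members was 0.14, 0.20 and 0.31, against -0.002, 0.01 and 0.009 over all genes tested. Leaving out any single library left 26 to 29 members called higher in CAST and 32 to 33 in DBA. In whole ganglia, more cells of a dividing type and more RNA per cell cannot be told apart.

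In all 3 strains 16 members were called higher (13.7% of all genes), and no member was among the 14% of all genes that were called lower in all 3. The 16 were Top2a, Ccnb1, Ccnb2, Cdk1, Aurka, Aurkb, Birc5, Cenpa, Cenpf, Prc1, Tpx2, Mcm3, Mcm6, Mcm7, Cdt1 and Foxm1. A further 12 were called higher in CAST and DBA but not in C57: Mki67, Bub1, Bub1b, Plk1, Cdc20, Cenpe, Mcm4, Pcna, Rrm1, Rrm2, Tyms and Mybl2. Ccna2 and Mcm5 were called higher in C57 and DBA, and Nusap1, Mcm2 and Cdc6 in DBA alone. Tk1 was called lower in C57 and CAST and Cdc45 lower in DBA, and Ccne1, Ccne2 and Ube2c were called in none. Every injured library lay above every naive library for 16 members in C57 (16.0% of all genes), 28 in CAST (25.0%) and 32 in DBA (25.6%). Every injured library lay below every naive one for 0 members in C57 (16.2%), 1 in CAST (21.4%) and 1 in DBA (24%).

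The 16 members of mitosis, cyclins and Cdk1 not included, were called higher 8, 14 and 15 times in C57, CAST and DBA, with median ratios of 1.41, 1.94 and 2.29. The 14 replication members were called higher 5, 9 and 12 times and lower 1 time in each strain, with median ratios of 1.18, 1.22 and 1.48. Of all genes 18.7%, 25.8% and 26.6% were called higher in C57, CAST and DBA, so the shares of all genes also differed by strain. Over the 38 members the largest of the 3 ratios was in DBA for 27 members, in CAST for 9 and in C57 for 2. The smallest was in C57 for 29 members, in CAST for 7 and in DBA for 2. The difference between the mitotic and the replication members was not tested.

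**Figure D1:**
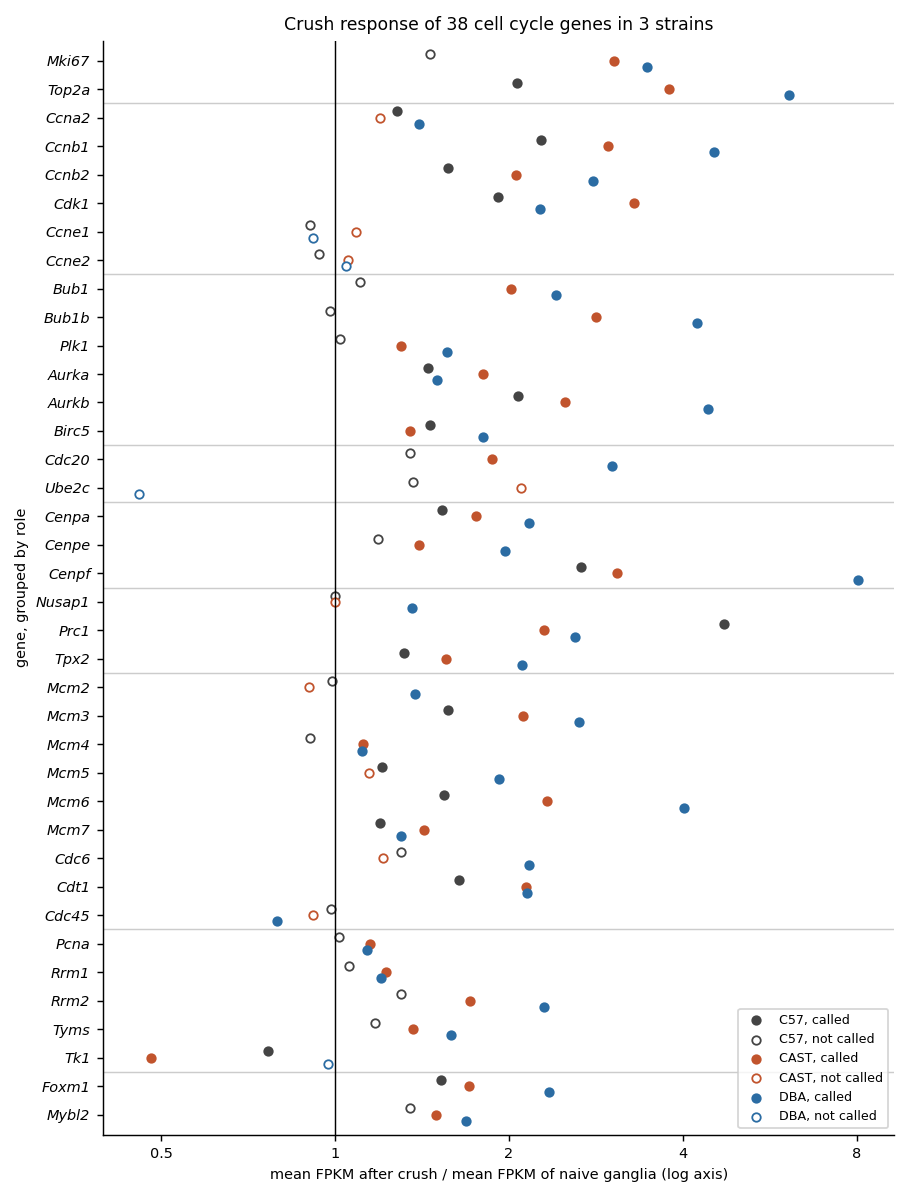
Ratio of mean FPKM after crush to mean FPKM of naive ganglia (log axis) for the 38 members, grouped by role, in C57, CAST and DBA; filled points were called by limma and open points were not. Most points lie right of 1, with the DBA point farthest right for 27 members, Prc1 farthest right in C57 (4.72), and Tk1 in CAST (0.480) and the uncalled Ube2c in DBA (0.457) farthest left.

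Macrophage and fibroblast markers rose with the members, and the part of any cell type in the members' response was not tested. The counts that follow are read against the shares of all genes called higher, 18.7%, 25.8% and 26.6% in C57, CAST and DBA. Macrophage, fibroblast and satellite glia markers exceeded these shares in each strain. Some of the other lists exceeded them in CAST or DBA but not in C57. All 10 macrophage and microglia markers were called higher in each strain, and their summed FPKM lay between 5.66 and 7.0 in naive C57 and between 27.1 and 32.1 in injured C57. The sum lay between 4.56 and 5.67 in naive and 39.7 and 50.8 in injured CAST, and between 5.71 and 7.25 in naive and 33.9 and 37.6 in injured DBA. Of 8 fibroblast markers 5, 6 and 7 were called higher in C57, CAST and DBA, with naive sums of 11.3 to 19.5, 13.1 to 17.8 and 14.7 to 22.8 FPKM and injured sums of 20.02 to 25.9, 31.7 to 34.3 and 39.2 to 44.6 FPKM. Satellite glia markers were called higher for 4, 4 and 5 of 8 and lower for 1 in CAST. Their summed FPKM overlapped between the states in each strain. The naive sums were 123.8 to 143.5 in C57, 137.9 to 158.7 in CAST and 162.2 to 179.4 FPKM in DBA. Injured sums were 128.8 to 157.5, 133.8 to 143.5 and 172.1 to 199.3 FPKM in the same order. Schwann cell markers were called higher for 1, 3 and 2 of 8, endothelial and mural markers for 1, 4 and 3 of 8 and lymphocyte markers for 1, 5 and 3 of 10, and 1 marker of each of these 3 lists was called lower in each strain. Neutrophil markers were called higher for 1 of 8 in each strain and erythroid markers for 0, 0 and 3 of 6. Skeletal muscle markers were called higher for 1 of 8 in CAST and lower for 5 of 8 in DBA. Of the sensory neuron markers 8 of 10 were called lower and 1 higher in each strain. No marker was at 0 in all libraries, and Cd3d, Cd8a and Nkg7 were at 0 in 1 library each.

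Mki67 and Top2a, the general signs of proliferation, rose several-fold after crush in CAST and DBA. Mki67 (chr7:135689784-135716361, minus strand) encodes the Ki-67 protein that coats mitotic chromosomes. In C57 it read 0.0799, 0.142, 0.195 and 0.0971 FPKM in the naive libraries (replicates 1 to 4) and 0.147, 0.149, 0.186 and 0.268 FPKM in the injured ones. The CAST libraries read 0.0745, 0.124, 0.0929 and 0.0746 FPKM naive and 0.35, 0.261, 0.262 and 0.237 FPKM injured. DBA gave 0.0659, 0.0846, 0.152 and 0.0677 FPKM naive and 0.382, 0.23, 0.372 and 0.30 FPKM injured. The injured libraries stood clear of the naive ones in CAST and DBA and overlapped them in C57. The ratios were 3.04 in CAST (log2 0.98, SE 0.17, adjusted p = 7.53e-05) and 3.47 in DBA (log2 1.13, SE 0.17, adjusted p = 1.18e-05). In C57 the ratio was 1.46, and the difference did not pass the test (adjusted p = 0.129).

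Top2a (chr11:98992943-99024189, minus strand) encodes topoisomerase II alpha, which untangles sister chromosomes. Naive C57 libraries read 0.0318, 0.0378, 0.0531 and 0.0284 FPKM and injured ones 0.0853, 0.0588, 0.075 and 0.093 FPKM. Naive CAST libraries read 0.028, 0.0319, 0.0344 and 0.018 FPKM and injured ones 0.135, 0.0891, 0.103 and 0.0974 FPKM. Naive DBA libraries read 0.0343, 0.0329, 0.0345 and 0.0204 FPKM and injured ones 0.226, 0.151, 0.192 and 0.176 FPKM. No injured library overlapped the naive ones of its strain, and all 4 injured DBA libraries lay above every injured library of the other strains. Top2a rose 2.07-fold in C57 (log2 0.37, SE 0.081, adjusted p = 0.00102). It rose 3.78-fold in CAST (log2 0.68, SE 0.081, adjusted p = 5.84e-07) and 6.1-fold in DBA (log2 1.13, SE 0.081, adjusted p = 3.38e-10). The response in DBA exceeded that in C57 by 0.76 (SE 0.12) on the log2 scale, with an adjusted p of 2.05e-04.

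**Figure D2:**
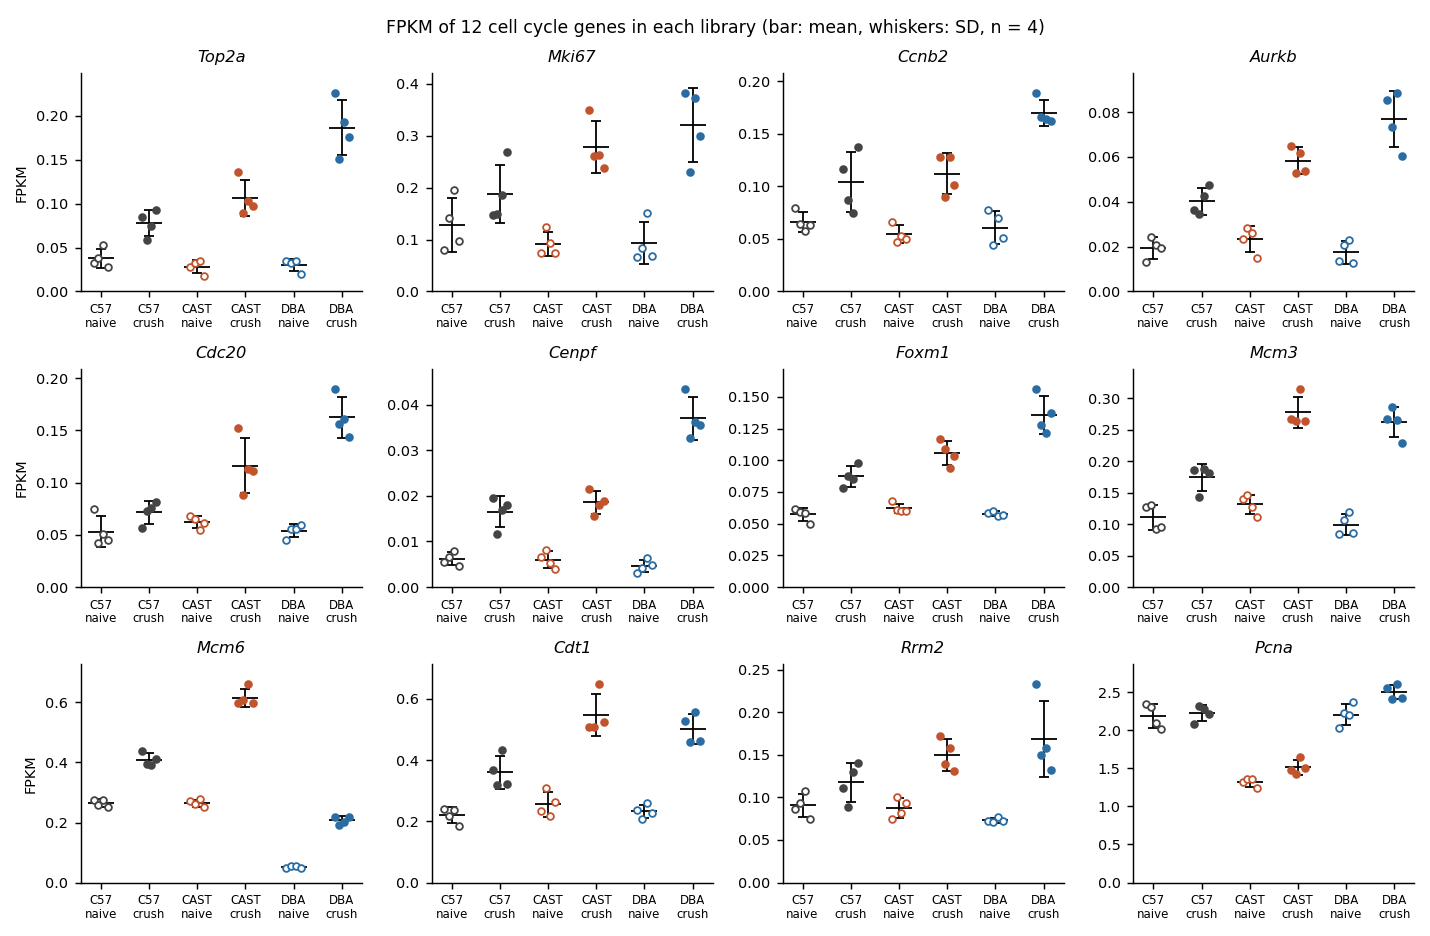
FPKM of 12 members in each of the 24 libraries (open circles naive, filled circles after crush, bars the mean and whiskers the SD of 4 libraries, linear axes from 0). Top2a, Cenpf and Foxm1 stand highest in the 4 injured DBA libraries, Mcm6 in the injured CAST libraries, and Pcna is lower in CAST than in the other strains in both states.

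Among the cyclins and their kinase, the mitotic cyclins rose and the E cyclins of S phase entry did not pass the test. Cyclin B1 (Ccnb1) and cyclin B2 (Ccnb2) switch on Cdk1 for mitosis. Ccnb1 went from 0.00893 ± 0.00394 to 0.0203 ± 0.00471 FPKM in C57 libraries, from 0.00748 ± 0.00209 to 0.0222 ± 0.00439 FPKM in CAST libraries and from 0.00912 ± 0.00226 to 0.0413 ± 0.00846 FPKM in DBA. That is 2.27-fold, 2.97-fold and 4.53-fold (adjusted p = 0.00419, 3.30e-04 and 4.60e-08), from at most 40.8 estimated reads per library. Ccnb1 passed the read filter mainly through its injured libraries, so its calls, here and in the counts of members, are not independent of that filter. Ccnb2 rose 1.57-fold, 2.06-fold and 2.8-fold going from C57 to CAST to DBA (adjusted p = 0.0119, 1.94e-04 and 3.31e-07), although 1 injured C57 library at 0.0744 FPKM lay below the highest naive one at 0.0796 FPKM. Cdk1, the kinase itself, rose 1.91-fold, 3.29-fold and 2.26-fold in the same order (adjusted p = 0.00191, 2.05e-06 and 2.27e-08). Naive DBA ganglia held 0.0194 ± 0.00381 FPKM of Cdk1, above the 0.0094 ± 0.00193 of naive C57 (log2 0.13, SE 0.026, adjusted p = 9.88e-04), and this was the only member called higher in naive DBA than in naive C57.

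Cyclin A2 (Ccna2), which acts in S phase and G2, rose in C57 and DBA. It read 0.44, 0.432, 0.411 and 0.424 FPKM in naive and 0.532, 0.48, 0.651 and 0.52 FPKM in injured C57 libraries. In CAST the readings were 0.34, 0.325, 0.332 and 0.282 FPKM and 0.412, 0.303, 0.428 and 0.388 FPKM, and in DBA 0.318, 0.367, 0.354 and 0.36 FPKM and 0.532, 0.424, 0.536 and 0.462 FPKM. Naive and injured libraries overlapped in CAST only. The rise was 1.28-fold in C57 (adjusted p = 0.0098) and 1.4-fold in DBA (adjusted p = 6.91e-04), and the ratio of 1.2 in CAST did not pass (adjusted p = 0.0631). Ccna2 overlaps 863 bases of Exosc9 on the other strand, and since the use of strand in counting is not stated, reads there cannot be assigned to either gene.

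Cyclin E1 (Ccne1), the partner of Cdk2 at the start of S phase, was not called after crush in any strain. C57 libraries read 0.536, 0.498, 0.489 and 0.567 FPKM naive and 0.475, 0.48, 0.448 and 0.49 FPKM injured. CAST libraries read 0.412, 0.378, 0.401 and 0.406 FPKM naive and 0.43, 0.426, 0.451 and 0.424 FPKM injured. DBA libraries read 0.504, 0.495, 0.463 and 0.554 FPKM naive and 0.492, 0.476, 0.433 and 0.442 FPKM injured. The injured libraries lay above the naive ones in CAST and overlapped them in C57 and DBA, with ratios of 0.906, 1.08 and 0.915 in C57, CAST and DBA (adjusted p = 0.0541, 0.109 and 0.0678). The response was called more positive in CAST than in C57 (log2 difference 0.21, SE 0.067, adjusted p = 0.0424) and than in DBA (0.20, SE 0.067, adjusted p = 0.0499), but these calls were lost on leaving out any of 14 and of 19 single libraries of the 24. Cyclin E2 (Ccne2) stood at ratios of 0.938, 1.05 and 1.04, none called, and shares 5622 bases with Ints8 on the other strand.

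The mitotic kinases, checkpoint and passenger genes were called higher for all 6 in CAST and in DBA and for 3 of 6 in C57. Polo-like kinase 1 (Plk1), which acts on centrosomes and kinetochores, read 0.14, 0.114, 0.179 and 0.148 FPKM in naive C57 and 0.154, 0.15, 0.13 and 0.156 FPKM in injured C57. CAST gave 0.175, 0.20, 0.236 and 0.187 FPKM naive and 0.286, 0.253, 0.246 and 0.254 FPKM injured. DBA gave 0.139, 0.111, 0.115 and 0.134 FPKM naive and 0.235, 0.191, 0.184 and 0.169 FPKM injured. In C57 the libraries of both states overlapped, and in CAST and DBA they did not. Plk1 rose 1.3-fold in CAST (adjusted p = 0.00769) and 1.56-fold in DBA (adjusted p = 2.92e-04). Its ratio in C57 was 1.02 (adjusted p = 0.873).

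Survivin (Birc5), a member of the chromosomal passenger complex with Aurora B, rose in each strain. C57 libraries read 0.144, 0.119, 0.113 and 0.115 FPKM naive and 0.186, 0.188, 0.157 and 0.187 FPKM injured. CAST libraries were lower, at 0.0827, 0.0881, 0.071 and 0.0968 FPKM naive and 0.137, 0.102, 0.107 and 0.11 FPKM injured. DBA libraries read 0.125, 0.126, 0.127 and 0.154 FPKM naive and 0.264, 0.237, 0.231 and 0.226 FPKM injured. No strain's states overlapped. The increases were 1.46-fold (adjusted p = 1.76e-04), 1.35-fold (adjusted p = 0.0064) and 1.8-fold (adjusted p = 1.84e-07) in C57, CAST and DBA, and the response in CAST was smaller than in DBA (log2 difference -0.33, SE 0.085, adjusted p = 0.0107).

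Aurora A (Aurka), which matures centrosomes, was the only mitotic member whose response was called larger in CAST than in either other strain. Its FPKM were 0.0675, 0.0697, 0.056 and 0.0631 in naive and 0.0898, 0.103, 0.0901 and 0.0885 in injured C57. CAST gave 0.0772, 0.0694, 0.0651 and 0.0718 naive and 0.132, 0.129, 0.128 and 0.122 injured. DBA gave 0.0645, 0.0613, 0.0632 and 0.0712 naive and 0.104, 0.0975, 0.0899 and 0.0989 injured. All injured CAST libraries lay above all other libraries of the study. The rise was 1.45-fold in C57 (log2 0.23, SE 0.032, adjusted p = 5.38e-06), 1.8-fold in CAST (log2 0.41, SE 0.032, adjusted p = 1.02e-09) and 1.5-fold in DBA (log2 0.26, SE 0.032, adjusted p = 8.14e-07). The response in CAST exceeded that in C57 by 0.18 (SE 0.045, adjusted p = 0.0102) and that in DBA by 0.16 (SE 0.045, adjusted p = 0.0232) on the log2 scale. The second of these calls was lost on leaving out any of 3 single libraries.

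Aurora B (Aurkb), the kinase of the passenger complex, rose 2.07-fold, 2.5-fold and 4.42-fold going from C57 to CAST to DBA (adjusted p = 6.26e-04, 2.79e-06 and 2.24e-09). The checkpoint kinase Bub1 had a ratio of 1.1 in C57 (adjusted p = 0.526) and rose 2.02-fold in CAST (adjusted p = 0.00221) and 2.41-fold in DBA (adjusted p = 2.42e-06). Bub1b, which encodes the checkpoint protein BubR1, stood apart by strain. It read 0.0728, 0.0862, 0.0721 and 0.0495 FPKM in naive and 0.0806, 0.0474, 0.0677 and 0.0788 FPKM in injured C57 libraries. In CAST it read 0.00614, 0.00779, 0.00435 and 0.00673 FPKM naive and 0.0178, 0.0144, 0.0226 and 0.0161 FPKM injured, and in DBA 0.00784, 0.00715, 0.00589 and 0.00384 FPKM naive and 0.0304, 0.0241, 0.0274 and 0.0229 FPKM injured. Every C57 library of either state lay above every CAST and DBA library. Naive C57 ganglia held 11.2 times the mean FPKM of naive CAST (log2 of CAST minus C57 -0.68, SE 0.056, adjusted p = 4.06e-09) and 11.4 times that of naive DBA (log2 of DBA minus C57 -0.68, SE 0.056, adjusted p = 1.03e-08). After crush Bub1b rose 2.83-fold in CAST (adjusted p = 0.0358, lost on leaving out any of 7 single libraries) and 4.24-fold in DBA (adjusted p = 8.57e-04), and its ratio in C57 was 0.979 (adjusted p = 0.887). The fit shares 1 estimate of the spread over all 6 groups, and the SD of Bub1b was 0.0152 FPKM in each C57 state against 0.00144 to 0.00351 FPKM in the others.

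Of the 2 genes of the anaphase-promoting complex, Cdc20 was called higher in CAST and DBA and Ube2c in no strain. Cdc20, the activator that lets the complex release sister chromatids, read 0.0743, 0.0424, 0.0512 and 0.0446 FPKM in naive and 0.0562, 0.0726, 0.0761 and 0.0818 FPKM in injured C57 libraries. CAST gave 0.0679, 0.0654, 0.0546 and 0.0608 FPKM naive and 0.152, 0.0885, 0.113 and 0.111 FPKM injured. DBA gave 0.0453, 0.0551, 0.0553 and 0.0597 FPKM naive and 0.19, 0.156, 0.161 and 0.144 FPKM injured. The states overlapped in C57 only. Cdc20 rose 1.87-fold in CAST (log2 0.41, SE 0.076, adjusted p = 1.53e-04) and 3.02-fold in DBA (log2 0.77, SE 0.076, adjusted p = 3.83e-08), and its ratio in C57 was 1.35 (adjusted p = 0.0898). The response in DBA exceeded that in C57 by 0.60 (SE 0.11, adjusted p = 0.00109) on the log2 scale. Cdc20 shares 53 bases with Elovl1 on the other strand, which was also called higher in DBA (log2 0.27, SE 0.053, adjusted p = 2.18e-04). Reads there cannot be assigned to either gene.

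Ube2c, the conjugating enzyme of the complex, was not called in any strain, and 1 library stood far apart. C57 read 0.111, 0.0932, 0.0334 and 0.146 FPKM naive and 0.198, 0.113, 0.0995 and 0.112 FPKM injured. CAST read 0.0967, 0.055, 0.0476 and 0.245 FPKM naive and 0.402, 0.138, 0.20 and 0.194 FPKM injured. DBA read 0.181, 0.0499, 1.38 and 0.0854 FPKM naive and 0.201, 0.175, 0.229 and 0.17 FPKM injured. The value of 1.38 in naive DBA replicate 3 stood far above the 3 other naive DBA libraries, which lay between 0.0499 and 0.181. Tnnc2, a troponin of skeletal muscle that shares 1662 bases with Ube2c on the other strand, read 0.445, 0.0431, 3.6 and 0.137 FPKM in the same 4 naive DBA libraries. The 8 skeletal muscle markers summed to 42.4 FPKM in that library and to at most 7.44 FPKM in any library of the other 5 groups. The part of muscle RNA and of the overlap in the Ube2c values was not tested. With all libraries the ratio for DBA was 0.457 (adjusted p = 0.811), and without naive DBA replicate 3 it was 1.84 (adjusted p = 0.124). The ratios in C57 and CAST were 1.36 and 2.1 (adjusted p = 0.725 and 0.263). Leaving out the same library also ended the calls of Mcm4 as higher in DBA and of Bub1b, Plk1, Mcm4 and Rrm2 as responding more in DBA than in C57, and Ccne1 was then called lower in DBA (log2 -0.14, adjusted p = 0.0221).

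All 3 centromere genes rose in CAST and DBA. Cenpa, the histone variant that marks centromeres, read 0.0391, 0.0398, 0.0307 and 0.0305 FPKM in naive and 0.0536, 0.0436, 0.0603 and 0.057 FPKM in injured C57. CAST gave 0.0269, 0.0438, 0.0292 and 0.0351 FPKM naive and 0.0704, 0.0544, 0.0565 and 0.0557 FPKM injured. DBA gave 0.0347, 0.0427, 0.0438 and 0.0284 FPKM naive and 0.0861, 0.0801, 0.0811 and 0.0771 FPKM injured. Naive and injured libraries did not overlap in any strain. The rise was 1.53-fold in C57 (adjusted p = 0.00241), 1.75-fold in CAST (adjusted p = 9.55e-05) and 2.17-fold in DBA (adjusted p = 2.46e-07).

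Cenpe, a kinetochore motor, rose in CAST and DBA. Its FPKM were 0.0166, 0.0225, 0.0256 and 0.0227 in naive and 0.0293, 0.0208, 0.0217 and 0.0319 in injured C57. CAST gave 0.0303, 0.0257, 0.0294 and 0.0289 naive and 0.0473, 0.0343, 0.0388 and 0.0395 injured. DBA gave 0.0201, 0.0216, 0.0211 and 0.0196 naive and 0.0476, 0.0339, 0.0421 and 0.0388 injured. States overlapped in C57, where the ratio was 1.19 (adjusted p = 0.278). Cenpe rose 1.4-fold in CAST (adjusted p = 0.00408) and 1.97-fold in DBA (adjusted p = 9.07e-06).

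Cenpf (chr1:189640606-189688086, minus strand), a large kinetochore protein made in G2, had the highest ratio of all 38 members. Naive C57 libraries read 0.00549, 0.00661, 0.00797 and 0.00469 FPKM and injured ones 0.0196, 0.0117, 0.017 and 0.0179 FPKM. Naive CAST libraries read 0.00661, 0.00822, 0.00536 and 0.00394 FPKM and injured ones 0.0216, 0.0156, 0.0181 and 0.0189 FPKM. Naive DBA libraries read 0.0030, 0.00423, 0.0063 and 0.00483 FPKM, from 12.5 to 26.1 estimated reads, and injured ones 0.0436, 0.0326, 0.0363 and 0.0356 FPKM, from 174.7 to 204.7 reads. The 4 injured DBA libraries lay above all other libraries. Cenpf rose 2.67-fold in C57 (log2 0.13, SE 0.023, adjusted p = 7.62e-05), 3.07-fold in CAST (log2 0.16, SE 0.023, adjusted p = 5.83e-06) and 8.06-fold in DBA (log2 0.39, SE 0.023, adjusted p = 1.39e-11). The response in DBA exceeded that in C57 by 0.26 (SE 0.032, adjusted p = 2.42e-05), and the difference of CAST minus DBA was -0.23 (SE 0.032, adjusted p = 3.78e-05), on the log2 scale.

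Of the spindle and cytokinesis genes, Prc1 had its largest ratio in C57. Prc1 (chr7:80294450-80316259, plus strand) bundles the microtubules of the central spindle. C57 libraries read 0.0253, 0.0294, 0.0293 and 0.0276 FPKM naive and 0.136, 0.126, 0.141 and 0.124 FPKM injured. CAST libraries read 0.0498, 0.0429, 0.0463 and 0.0456 FPKM naive and 0.105, 0.105, 0.114 and 0.101 FPKM injured. DBA libraries read 0.0339, 0.0313, 0.0274 and 0.0287 FPKM naive and 0.0833, 0.0759, 0.0823 and 0.0744 FPKM injured. After crush all 4 C57 libraries stood above all CAST and DBA libraries. The rise was 4.72-fold in C57 (log2 0.86, SE 0.027, adjusted p = 1.83e-15), 2.3-fold in CAST (log2 0.50, SE 0.027, adjusted p = 4.99e-12) and 2.61-fold in DBA (log2 0.46, SE 0.027, adjusted p = 1.35e-11). Prc1 was the only member whose response was called smaller in DBA than in C57 (log2 difference -0.40, SE 0.038, adjusted p = 5.81e-07), and it was also smaller in CAST than in C57 (-0.36, SE 0.038, adjusted p = 1.11e-06). The whole of Prc1, 21810 bases, lies within the span of Rccd1 on the other strand. The non-coding RNA gene 6330403N20Rik also shares 1889 bases with Prc1 on the other strand, and its values were not examined. Rccd1 was called lower after crush in each strain (log2 -0.17, -0.24 and -0.17, adjusted p = 0.00742, 2.27e-04 and 0.00568), the opposite direction to Prc1. Reads in the shared exons cannot be assigned while the use of strand is not known.

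Nusap1, which links spindle microtubules to chromosomes, rose in DBA alone. C57 libraries read 0.0369, 0.0382, 0.0396 and 0.0362 FPKM naive and 0.0362, 0.0348, 0.0414 and 0.0383 FPKM injured. CAST libraries read 0.0344, 0.0358, 0.0296 and 0.0336 FPKM naive and 0.0387, 0.0295, 0.0328 and 0.0325 FPKM injured. DBA libraries read 0.0337, 0.0394, 0.0378 and 0.0396 FPKM naive and 0.0599, 0.0473, 0.0516 and 0.0455 FPKM injured. The states overlapped in C57 and CAST, with ratios of 0.998 and 1.0. In DBA Nusap1 rose 1.36-fold (log2 0.13, SE 0.026, adjusted p = 2.38e-04), by more than in C57 (0.14, SE 0.037, adjusted p = 0.0274) and in CAST, with a difference of CAST minus DBA of -0.13 (SE 0.037, adjusted p = 0.0188). Nusap1 shares 172 bases with Oip5 on the other strand, which was called lower in DBA (log2 -0.29, SE 0.047, adjusted p = 2.49e-05). Reads there cannot be assigned to either gene. Tpx2, which starts microtubules near chromosomes and activates Aurora A, rose 1.31-fold, 1.55-fold and 2.11-fold going from C57 to CAST to DBA (adjusted p = 0.0012, 1.47e-06 and 4.37e-10).

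The 6 subunits of the MCM helicase did not move as 1 unit. Mcm3, Mcm6 and Mcm7 were called higher in each strain, Mcm5 in C57 and DBA, Mcm4 in CAST and DBA, and Mcm2 in DBA. Mcm3 rose 1.57-fold, 2.11-fold and 2.65-fold going from C57 to CAST to DBA (adjusted p = 4.76e-04, 1.66e-07 and 7.61e-09). Mcm7 rose 1.19-fold, 1.43-fold and 1.3-fold in the same order (adjusted p = 0.00447, 2.03e-06 and 6.84e-05), and it shares 421 bases with Ap4m1 and 64 with Cops6 on the other strand. Cops6 was also called higher in CAST (log2 0.19, SE 0.067, adjusted p = 0.0240).

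Mcm6 (chr1:128331590-128359664, minus strand), whose promoter with its E2F words is printed above, was low in naive DBA. C57 libraries read 0.276, 0.257, 0.275 and 0.251 FPKM naive and 0.44, 0.396, 0.39 and 0.411 FPKM injured. CAST libraries read 0.27, 0.261, 0.277 and 0.251 FPKM naive and 0.598, 0.607, 0.661 and 0.598 FPKM injured. DBA libraries read 0.0482, 0.0553, 0.0545 and 0.0482 FPKM naive and 0.217, 0.191, 0.203 and 0.218 FPKM injured. Naive C57 and CAST overlapped, and every DBA library of either state lay below every naive library of both. The naive level in DBA was lower than in C57 (log2 -1.27, SE 0.039, adjusted p = 3.01e-15) and CAST held 5.13 times the DBA mean (log2 1.27, SE 0.039, adjusted p = 1.06e-15). After crush Mcm6 rose 1.55-fold in C57 (log2 0.48, SE 0.039, adjusted p = 4.51e-09), 2.33-fold in CAST (log2 0.97, SE 0.039, adjusted p = 5.54e-14) and 4.02-fold in DBA (log2 1.02, SE 0.039, adjusted p = 2.27e-14). The response exceeded that in C57 by 0.49 (SE 0.056, adjusted p = 2.90e-06) in CAST and by 0.54 (SE 0.056, adjusted p = 1.80e-06) in DBA. The difference between CAST and DBA was -0.05 (SE 0.056, adjusted p = 0.684) and was not called, on a scale whose added 0.1 exceeds the naive DBA level and so compresses the DBA change more.

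Mcm5 (chr8:75109569-75128439, plus strand) was highest in CAST in both states. C57 libraries read 0.24, 0.172, 0.171 and 0.199 FPKM naive and 0.245, 0.218, 0.221 and 0.257 FPKM injured. CAST libraries read 0.353, 0.354, 0.347 and 0.343 FPKM naive and 0.433, 0.402, 0.362 and 0.402 FPKM injured. DBA libraries read 0.164, 0.138, 0.156 and 0.144 FPKM naive and 0.342, 0.278, 0.289 and 0.249 FPKM injured. Naive CAST lay above every naive library of C57 (log2 0.61, SE 0.071, adjusted p = 5.22e-07) and of DBA (log2 0.84, SE 0.071, adjusted p = 5.41e-09). Mcm5 rose 1.92-fold in DBA (log2 0.63, SE 0.071, adjusted p = 2.28e-07), more than in C57 (0.45, SE 0.10, adjusted p = 0.00701) and more than in CAST (CAST minus DBA -0.48, SE 0.10, adjusted p = 0.00211). Its rise of 1.2-fold in C57 (adjusted p = 0.0431) was lost on leaving out any of 10 single libraries, and the ratio of 1.14 in CAST was not called (adjusted p = 0.0906).

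Mcm2 rose in DBA, and the Mcm4 calls stood near the threshold. Mcm2 libraries read 0.386, 0.368, 0.351 and 0.384 FPKM in naive and 0.361, 0.362, 0.361 and 0.388 FPKM in injured C57. CAST gave 0.335, 0.359, 0.379 and 0.328 FPKM naive and 0.333, 0.302, 0.288 and 0.339 FPKM injured. DBA gave 0.246, 0.265, 0.264 and 0.295 FPKM naive and 0.413, 0.406, 0.322 and 0.332 FPKM injured. The naive DBA libraries were below all other naive libraries, and the injured DBA libraries overlapped those of C57. Mcm2 rose 1.38-fold in DBA (log2 0.34, SE 0.061, adjusted p = 7.13e-05), and its ratios of 0.988 in C57 and 0.901 in CAST were not called (adjusted p = 0.894 and 0.129). The response in CAST was smaller than in DBA, by a log2 difference of -0.46 (SE 0.086, adjusted p = 7.35e-04).

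Mcm4 libraries read 0.991, 0.959, 0.928 and 0.996 FPKM in naive and 0.788, 0.882, 1.02 and 0.822 FPKM in injured C57. CAST gave 0.663, 0.749, 0.70 and 0.687 FPKM naive and 0.782, 0.738, 0.8292 and 0.776 FPKM injured. DBA gave 0.92, 0.893, 0.812 and 0.847 FPKM naive and 0.994, 0.916, 0.985 and 0.966 FPKM injured. The 2 states overlapped in each strain. The ratios were 0.906 in C57 (adjusted p = 0.0702), 1.12 in CAST (adjusted p = 0.0495) and 1.11 in DBA (adjusted p = 0.0494). The calls in CAST and DBA were lost on leaving out any of 18 and of 16 single libraries.

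The loading factor Cdt1 rose in each strain, and Cdc45, which turns the loaded ring into a working helicase, was called higher in none. Cdt1 libraries read 0.24, 0.217, 0.238 and 0.184 FPKM in naive and 0.366, 0.32, 0.434 and 0.321 FPKM in injured C57. CAST gave 0.233, 0.31, 0.216 and 0.263 FPKM naive and 0.507, 0.509, 0.648 and 0.526 FPKM injured. DBA gave 0.238, 0.207, 0.258 and 0.228 FPKM naive and 0.527, 0.459, 0.558 and 0.461 FPKM injured. No strain's states overlapped. The rise was 1.64-fold in C57 (log2 0.52, SE 0.094, adjusted p = 1.36e-04), 2.14-fold in CAST (log2 0.87, SE 0.094, adjusted p = 1.58e-07) and 2.15-fold in DBA (log2 0.85, SE 0.094, adjusted p = 1.76e-07). All 5540 bases of Cdt1 lie within Gm20388 on the same strand, which was also called higher in each strain (log2 0.34, 0.38 and 0.41), so the reads of the 2 genes cannot be told apart with certainty. Cdc6 rose 2.17-fold in DBA (adjusted p = 3.39e-04) and had ratios of 1.3 in C57 and 1.21 in CAST (adjusted p = 0.202 and 0.376). Cdc45 went from 0.045 ± 0.00252 to 0.0358 ± 0.00184 FPKM in DBA, a ratio of 0.794 (log2 -0.10, SE 0.025, adjusted p = 0.00283), with all injured libraries below all naive ones. Cdc45 shares 209 bases with Ufd1l on the other strand, which was also called lower in DBA (0.536 ± 0.00686 to 0.465 ± 0.0204 FPKM, log2 -0.17, SE 0.035, adjusted p = 3.56e-04), so reads there cannot be assigned to either gene. The ratios of Cdc45 in C57 and CAST were 0.984 and 0.914 (adjusted p = 0.872 and 0.201).

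Among the fork clamp and nucleotide supply genes, 4 of 5 rose in CAST and DBA. Pcna (chr2:132249162-132253314, minus strand) read 2.35, 2.31, 2.09 and 2.02 FPKM in naive and 2.08, 2.32, 2.29 and 2.22 FPKM in injured C57. CAST gave 1.32, 1.37, 1.36 and 1.24 FPKM naive and 1.48, 1.42, 1.65 and 1.51 FPKM injured. DBA gave 2.03, 2.22, 2.2 and 2.37 FPKM naive and 2.56, 2.41, 2.61 and 2.43 FPKM injured. Every CAST library lay below every C57 and DBA library, and naive CAST was lower than naive C57 (log2 -0.69, SE 0.056, adjusted p = 3.10e-09) and naive DBA (log2 -0.70, SE 0.056, adjusted p = 2.61e-09). Pcna rose 1.15-fold in CAST (adjusted p = 0.010) and 1.13-fold in DBA (adjusted p = 0.0135), and its ratio in C57 was 1.02 (adjusted p = 0.779).

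Rrm1, the large subunit of the ribonucleotide reductase that makes DNA building blocks, read 0.444, 0.453, 0.493 and 0.468 FPKM in naive and 0.473, 0.456, 0.543 and 0.495 FPKM in injured C57. CAST gave 0.434, 0.416, 0.434 and 0.426 FPKM naive and 0.522, 0.513, 0.543 and 0.515 FPKM injured. DBA gave 0.473, 0.43, 0.43 and 0.415 FPKM naive and 0.53, 0.498, 0.542 and 0.532 FPKM injured. States overlapped in C57 only. Rrm1 rose 1.22-fold in CAST (adjusted p = 7.33e-05) and 1.2-fold in DBA (adjusted p = 1.68e-04), with a ratio of 1.06 in C57 (adjusted p = 0.233). The small subunit Rrm2, the one made mainly in S phase, had larger ratios of 1.3, 1.71 and 2.3 in C57, CAST and DBA (adjusted p = 0.114, 8.17e-04 and 8.87e-06). Thymidylate synthase (Tyms) stood at ratios of 1.17, 1.37 and 1.59 (adjusted p = 0.103, 2.55e-04 and 5.01e-05).

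Tk1 (chr11:117815526-117826092, minus strand), the cytosolic thymidine kinase of S phase, ran the other way. C57 libraries read 0.158, 0.194, 0.233 and 0.218 FPKM naive and 0.165, 0.153, 0.135 and 0.16 FPKM injured. CAST libraries read 0.703, 0.756, 0.743 and 0.745 FPKM naive and 0.409, 0.351, 0.307 and 0.345 FPKM injured. DBA libraries read 0.137, 0.113, 0.108 and 0.143 FPKM naive and 0.153, 0.118, 0.10 and 0.116 FPKM injured. Naive CAST stood at 3.67 times the naive C57 mean (log2 1.48, SE 0.082, adjusted p = 7.39e-12) and 5.88 times the naive DBA mean (log2 1.90, SE 0.082, adjusted p = 1.62e-13). After crush Tk1 fell in CAST to a ratio of 0.48 (log2 -0.89, SE 0.082, adjusted p = 1.43e-08) and in C57 to 0.764 (log2 -0.24, SE 0.082, adjusted p = 0.0232, lost on leaving out any of 3 single libraries), and its ratio in DBA was 0.973 (adjusted p = 0.836). The log2 difference of the response in CAST was -0.65 (SE 0.12, adjusted p = 5.91e-04) from C57 and -0.86 (SE 0.12, adjusted p = 1.94e-05) from DBA. All 10567 bases of Tk1 lie within the span of Gm20708 on the other strand, and Afmid shares 169 bases. Gm20708 held 1.85 ± 0.0393 FPKM in naive CAST, 0.708 ± 0.0261 FPKM in naive C57 and 0.607 ± 0.037 FPKM in naive DBA, and after crush it was called lower in CAST (log2 -0.36, SE 0.043, adjusted p = 6.74e-07) and higher in DBA (log2 0.29, SE 0.043, adjusted p = 1.17e-05). Afmid was called lower in each strain (log2 -0.18, -0.64 and -0.15) and went from 0.476 ± 0.00184 to 0.27 ± 0.00512 FPKM in CAST. The part of Gm20708 and Afmid reads in the Tk1 values was not tested.

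**Figure D3:**
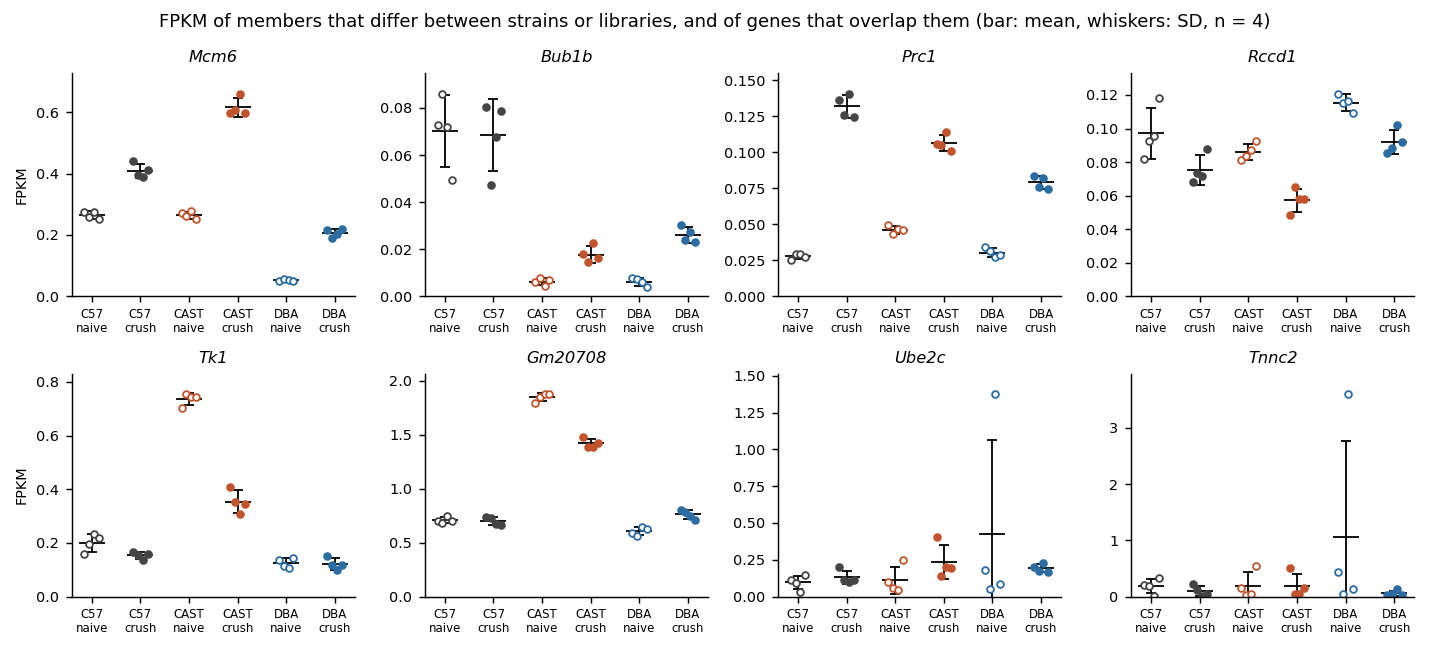
FPKM in each library (open circles naive, filled circles after crush, bars the mean and whiskers the SD of 4 libraries, drawn from 0 up) of Mcm6, Bub1b, Prc1, Tk1 and Ube2c, and of Rccd1, Gm20708 and Tnnc2, which overlap Prc1, Tk1 and Ube2c on the other strand. Mcm6 is low in naive DBA and Bub1b high in C57, Tk1 and Gm20708 are both highest in naive CAST, and Ube2c and Tnnc2 share 1 high library, naive DBA replicate 3.

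Both transcription factors of the mitotic programme rose in CAST and DBA. Foxm1 (chr6:128362967-128376146, plus strand) read 0.0616, 0.0595, 0.0585 and 0.0494 FPKM in naive and 0.0781, 0.0877, 0.0851 and 0.098 FPKM in injured C57. CAST gave 0.0675, 0.0607, 0.060 and 0.0599 FPKM naive and 0.117, 0.109, 0.0941 and 0.104 FPKM injured. DBA gave 0.0582, 0.0602, 0.0563 and 0.0569 FPKM naive and 0.157, 0.128, 0.121 and 0.137 FPKM injured. Naive levels overlapped between strains, and in each strain all injured libraries lay above all naive ones. Foxm1 rose 1.52-fold in C57 (log2 0.25, SE 0.042, adjusted p = 6.11e-05), 1.71-fold in CAST (log2 0.34, SE 0.042, adjusted p = 8.12e-07) and 2.34-fold in DBA (log2 0.58, SE 0.042, adjusted p = 3.82e-10). The response in DBA exceeded that in C57 by 0.33 (SE 0.059, adjusted p = 0.00128). Foxm1 shares 691 bases with Tex52, listed as 4933413G19Rik, on the same strand. That gene was also called higher in DBA (log2 0.26, SE 0.048, adjusted p = 1.16e-04) but not in C57 or CAST (adjusted p = 0.90 and 0.0519). Its response was also larger in DBA than in C57 (log2 difference 0.27, SE 0.067, adjusted p = 0.0152), and CAST minus DBA was -0.37 (SE 0.067, adjusted p = 5.19e-04). Reads in the shared bases cannot be assigned to either gene with certainty.

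Mybl2, the B-Myb factor that binds the MuvB complex in S phase, read 0.0107, 0.0186, 0.0269 and 0.0187 FPKM in naive and 0.0254, 0.0268, 0.025 and 0.0237 FPKM in injured C57. CAST gave 0.0217, 0.0258, 0.0367 and 0.0235 FPKM naive and 0.0451, 0.0407, 0.0335 and 0.0415 FPKM injured. DBA gave 0.0157, 0.0153, 0.017 and 0.0169 FPKM naive and 0.0281, 0.0261, 0.0257 and 0.0296 FPKM injured. States overlapped in C57 and CAST. Mybl2 rose 1.49-fold in CAST (adjusted p = 0.00185) and 1.69-fold in DBA (adjusted p = 0.00359), and its ratio in C57 was 1.35 (adjusted p = 0.0836).

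The differences between strains in the crush response were tested as interaction contrasts, which share libraries with each other. The response in DBA was called larger than in C57 for 22 members (4.72% of all genes) and smaller for 1, Prc1 (3.64%). On the log2(FPKM + 0.1) scale the members with the largest such differences were Mki67 (0.80, SE 0.24, adjusted p = 0.0476), Top2a (0.76), Cdc20 (0.60) and Mcm6 (0.54), and the 22 included 12 of the 16 mitotic members: Mki67, Top2a, Bub1, Bub1b, Plk1, Aurkb, Cdc20, Cenpa, Cenpe, Cenpf, Nusap1 and Tpx2. That order is not the order of the ratios: Bub1b had ratios of 4.24 in DBA and 0.979 in C57, and Cenpf 8.06 and 2.67. The other members among the 22 were Ccnb1, Ccnb2, Cdk1, Mcm2, Mcm3, Mcm4, Mcm5, Mcm6, Rrm2 and Foxm1. Cdk1 had close ratios of 2.26 in DBA and 1.91 in C57, and its largest, 3.29, was in CAST. Its naive mean was 0.0194 FPKM in DBA and 0.0094 in C57, so the added 0.1 compresses the C57 change more. The Cdk1 call was lost in 2 settings other than leaving out single libraries. The count of 22 fell to 14 without injured C57 replicate 2 and to 14 without injured DBA replicate 1, and it was 14 with limma-voom on the estimated reads. The Bub1b, Mki67 and Plk1 calls were lost on leaving out any of 20, 17 and 16 single libraries, those of Rrm2, Cenpa and Mcm4 any of 13, 12 and 12, and those of Nusap1, Cenpe and Ccnb2 any of 4, 2 and 1. The response in CAST was called larger than in C57 for 4 members (7.08% of all genes), Ccne1, Aurka, Mcm4 and Mcm6, and smaller for 2 (4.74%), Prc1 and Tk1. That count of 4 was 2 without injured C57 replicate 1, without injured CAST replicate 3 or without naive CAST replicate 4. The response in CAST was called larger than in DBA for 2 members (7.36%), Ccne1 and Aurka, and smaller for 12 (6.62%): Top2a, Ccnb1, Aurkb, Birc5, Cdc20, Cenpf, Nusap1, Tpx2, Mcm2, Mcm5, Tk1 and Foxm1. Of these, the calls of Aurkb, Cdc20 and Ccnb1 were lost on leaving out any of 8, 6 and 1 single libraries.

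Markers of other cell types also differed between strains in their response. Of all genes 7.08% were called as responding more and 4.74% less in CAST than in C57. The shares were 4.72% and 3.64% for DBA against C57 and 7.36% and 6.62% for CAST against DBA. Of the 10 macrophage and microglia markers 8 responded more in CAST than in C57 and 5 more in CAST than in DBA, while 1 responded more in DBA than in C57. Of the 8 fibroblast markers 1 responded more in CAST than in C57 and 2 more in DBA than in C57. Of the 8 satellite glia markers 2 responded more and 1 less in DBA than in C57, 2 less in CAST than in C57 and 3 less in CAST than in DBA. Of the 8 endothelial and mural markers 2 responded more and 1 less in CAST than in C57. In the same list 1 responded more and 1 less in DBA than in C57, and 1 more in CAST than in DBA. Of the 10 lymphocyte markers 2 responded more in CAST than in C57, 1 more in DBA than in C57 and 1 more in CAST than in DBA. Of the 10 sensory neuron markers 2 responded less in DBA than in C57 and 1 more in CAST than in DBA. The Schwann cell and skeletal muscle lists each had 1 that responded more in CAST than in DBA, and no neutrophil or erythroid marker was called. For the members, 4 of 38 responded more in CAST than in C57 and 22 more in DBA than in C57, and 12 responded less in CAST than in DBA. Whether any of these cell types carries the members' RNA was not tested.

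**Figure D4:**
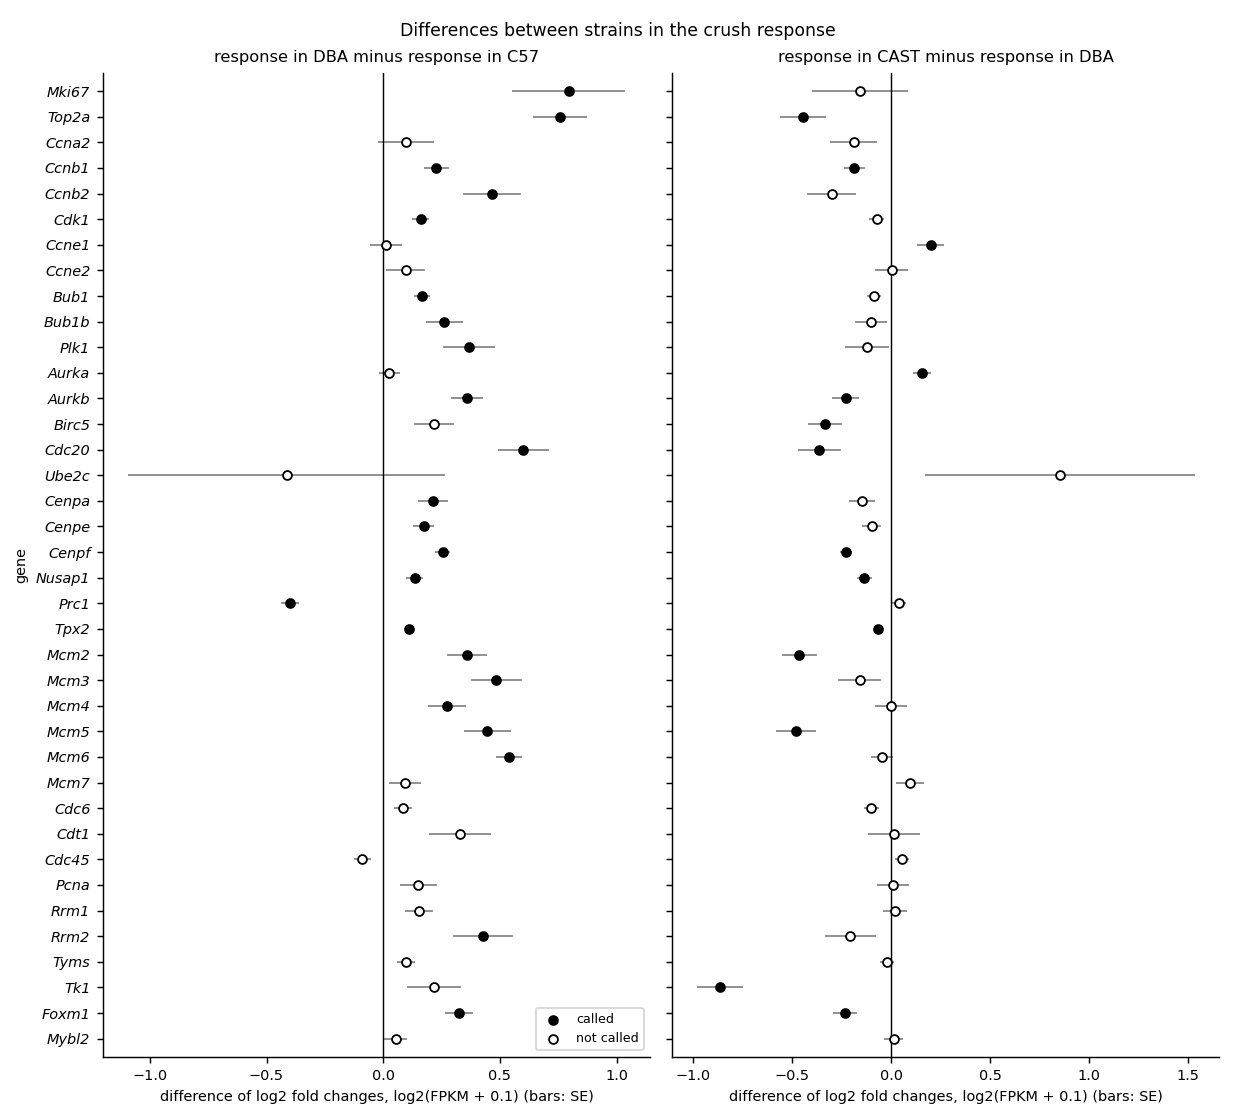
Difference of the crush response between strains for each of the 38 members, DBA minus C57 (left) and CAST minus DBA (right), in log2(FPKM + 0.1) units with bars of 1 SE; filled points were called by limma. On the left 22 points are called above 0 and Prc1 below 0, and on the right 12 are called below 0 and Ccne1 and Aurka above 0.

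Before injury most shares of members called between strains were near or below those of all genes, so no pattern of the members as a group is read from them. Naive CAST against naive C57 gave 6 members higher (24.6% of all genes) and 8 lower (20.2%). Naive DBA against naive C57 gave 1 higher (11.5%) and 6 lower (10.3%). Naive CAST against naive DBA gave 10 higher (23.9%) and 6 lower (21.0%). They include the differences of Tk1, Mcm6, Mcm5, Pcna and Bub1b described above. Mki67, Top2a, Ccnb1, Ccnb2, Aurka, Aurkb, Cdc20, Cenpa, Cenpf, Tpx2, Nusap1 and Foxm1 were not called in any naive comparison.

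The other genes of the pathway, 109 genes of 9 lists, were counted the same way. They were called higher for 20, 43 and 53 genes and lower for 23, 19 and 23 in C57, CAST and DBA, with median log2 fold changes of -0.002, 0.05 and 0.06. The shares of all genes called higher were 18.7%, 25.8% and 26.6% and of those called lower 20.7%, 21.5% and 24%, so the C57 counts are at the level of all genes. The counts by list that follow are read against the same shares. Mitotic motors and spindle genes were called higher for 4, 10 and 12 of 15 and lower for 1, 0 and 1. Kif20a, a motor of cytokinesis, rose 1.25-fold, 2.45-fold and 2.63-fold in the order C57, CAST and DBA (adjusted p = 0.00522, 5.25e-11 and 1.03e-11), and Kif22, a chromosome motor, rose 2.21-fold, 2.06-fold and 2.60-fold. Kinetochore and checkpoint genes were called higher for 1, 6 and 10 of 14. Condensin and cohesin control genes were called higher for 3, 4 and 5 of 9 and lower for 2, 0 and 2. Pttg1, the securin that holds separase in check, fell in C57 and DBA to ratios of 0.735 and 0.586 and rose 2.54-fold in CAST. The CAST ratio starts from a low level. Mean FPKM of Pttg1 in naive ganglia was 0.0246 for CAST, 0.0944 for DBA and 0.408 for C57. After crush the means were 0.0625, 0.0553 and 0.299 FPKM in that order, so injured CAST stayed below naive DBA and C57. Why the levels differ between strains was not tested. Genes of G2 and M entry control were called higher for 3, 5 and 5 of 10 and lower for 2 in each strain, with Ccnf (cyclin F) rising 1.55-fold, 1.72-fold and 3.16-fold and Wee1, the kinase that holds Cdk1 inactive, falling in C57 and DBA to ratios of 0.586 and 0.646.

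Genes of the earlier stages moved both ways. G1 cyclins and kinases were called higher for 1, 3 and 6 of 8 and lower for 2 in each strain. Cyclin D1 (Ccnd1) rose 1.86-fold in DBA (adjusted p = 1.72e-06) and had ratios of 1.05 and 1.1 in C57 and CAST (adjusted p = 0.645 and 0.437). Of the 7 CDK inhibitors 4 were called higher and 1 lower in each strain. Cdkn1a, which encodes p21, went from 2.91 ± 0.151 to 12.8 ± 1.21 FPKM in C57, from 2.62 ± 0.288 to 12.6 ± 0.716 FPKM in CAST libraries and from 3.43 ± 0.132 to 12.6 ± 0.287 FPKM in DBA, ratios of 4.40, 4.79 and 3.66. E2F and pocket protein genes were called higher for 3, 4 and 5 of 16 and lower for 5 in each strain, with E2f1 falling to ratios of 0.767, 0.660 and 0.696. E2f4 and Tfdp1 were called higher in each strain, at ratios of 1.20, 1.13 and 1.41 and of 1.32, 1.18 and 1.40. Origin recognition and loading genes were called higher for 1, 4 and 3 of 14 and lower for 5, 3 and 4. Mcm10, at low levels, was called higher in C57 and CAST (ratios of 1.54 and 4.14), and Gins2 and Gins3 were called lower in each strain. Polymerase and fork genes were called higher for 0, 3 and 3 of 16 and lower for 5, 5 and 6, and Rpa1, a subunit of the single-strand binding protein, fell to ratios of 0.654, 0.615 and 0.609. Rfc5 was called higher in CAST and DBA, at ratios of 1.33 and 1.26.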

How the data were processed

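RNA of dorsal root ganglia was measured in 24 libraries, 4 in each of 6 groups of strain and state. Reads were aligned with STAR 2.3.0 and the mm10 build was used, per the submitters' processing notes. The counting tool, the annotation and the use of strand were not given in the sources used here. All strains share the mm10 reference, and its effect on CAST and DBA levels was not tested. The authors deposited FPKM per gene and library, scaled to the library's size and the gene's span.

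Reads and library totals were estimated from the steps of low FPKM and the spans of 36345 identifiers (95.1%), and 67.9% of values between 0.5 and 100 reads came out whole within 0.05 reads, against 10% by chance. A gene was tested if 4 or more libraries held 10 or more of its estimated reads, or 0.1 FPKM or more where no span was known. This left 27065 genes and removed 11150. They were fitted with limma 3.58.1 in R 4.3.3 on log2(FPKM + 0.1) with all 6 groups, 18 residual degrees of freedom, robust empirical Bayes (statmod 1.5.0) and Benjamini-Hochberg adjustment over all genes tested, in 9 contrasts. The script was tested on simulated data. Since the files hold FPKM, the planned count models were not run, and limma-voom on the estimated reads was added after the data were seen.

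The members and gene lists were chosen with earlier results of these data known. All 38 members may be named. Values in every library are given for the 2 members of each role with the highest mean FPKM and for the 4 members with the smallest adjusted p in each interaction contrast. Bub1b was given in the same way after its values were seen. Of each other pathway list at most 3 genes are named, from those with the largest called crush change. Marker genes were matched under older symbols for Adgre1 and Epb42, and Hbb-bs and Hbb-bt were not matched. No source says that the libraries of a group came from separate animals, beyond the word biological, so p-values measure the spread between these libraries. Replicates of a group differed by more than counting noise, with a mean chi-square per gene of at least 2.575. Replicate numbers did not pair the libraries. Alternatives covered the pseudocount, filter, scaling, samples fitted, replicate block, variance and libraries left out.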

Additional observations from a re-analysis of the deposited data

Results flagged for a closer look

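Within groups of 4 libraries, 17 of 228 tested sets of values had 1 library separated from the others by a gap beyond Dixon's limit, and chance flags about 1 in 20. Ube2c in naive DBA replicate 3 was at 1.38 FPKM against 0.0499 to 0.181 in the others. In injured C57, Ube2c was high in replicate 1 at 0.198 FPKM, Aurka was high in replicate 2 at 0.103 FPKM, Birc5 was low in replicate 3 at 0.157 FPKM, Mcm3 was low in replicate 2 at 0.142 FPKM and Mcm2 was high in replicate 4 at 0.388 FPKM. Ccnb1 was high in naive C57 replicate 3 at 0.0148 FPKM. Injured DBA replicate 1 was high for Ccnb2 at 0.189 FPKM and for Cdk1 at 0.0520 FPKM, and Cdc45 was high in injured DBA replicate 3 at 0.0385 FPKM. Naive DBA replicate 4 was low for Top2a at 0.0204 FPKM and high for Birc5 at 0.154 FPKM. Injured CAST replicate 3 was high for Mcm3 at 0.315 FPKM, for Mcm6 at 0.661 FPKM and for Cdt1 at 0.648 FPKM. Cenpa was high in injured CAST replicate 1 at 0.0704 FPKM, and Foxm1 was high in naive CAST replicate 1 at 0.0675 FPKM.

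The crush response differed between strains by limma's interaction test for 43 pairs of member and contrast, which share libraries. All values that follow are differences of log2 fold change. CAST minus C57 gave Ccne1 0.21, Aurka 0.18, Mcm4 0.28, Mcm6 0.49, Prc1 -0.36 and Tk1 -0.65. DBA minus C57 gave for the proliferation, cyclin and kinase genes Mki67 0.80, Top2a 0.76, Ccnb1 0.23, Ccnb2 0.47, Cdk1 0.16, Bub1 0.17, Bub1b 0.26, Plk1 0.37 and Aurkb 0.36. It gave for the genes of anaphase, centromere and spindle Cdc20 0.60, Cenpa 0.21, Cenpe 0.17, Cenpf 0.26, Nusap1 0.14, Tpx2 0.11 and Prc1 -0.40. It gave for replication and transcription Mcm2 0.36, Mcm3 0.49, Mcm4 0.27, Mcm5 0.45, Mcm6 0.54, Rrm2 0.43 and Foxm1 0.33. CAST minus DBA gave Ccne1 0.20 and Aurka 0.16 above 0. It gave below 0 Top2a -0.44, Ccnb1 -0.19, Aurkb -0.23, Birc5 -0.33, Cdc20 -0.36, Cenpf -0.23, Nusap1 -0.13, Tpx2 -0.068, Mcm2 -0.46, Mcm5 -0.48, Tk1 -0.86 and Foxm1 -0.23.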

How the results depend on the processing

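No called result for a single member reversed its direction under any alternative. In every setting that tested them, 73 of 82 calls after crush were kept, 30 of 37 naive strain calls and 19 of 43 interaction calls. With a mean of at least 0.1 FPKM required, 18 members were tested. Those called higher after crush were then 7 in C57, 10 in CAST and 13 in DBA, with 0 lower in DBA. Under the same filter the naive counts higher were 3 for CAST over C57, 0 for DBA over C57 and 6 for CAST over DBA. The interactions then gave 2 higher and 1 lower for CAST minus C57, 5 higher and 0 lower for DBA minus C57, and 0 higher and 4 lower for CAST minus DBA. Fewer members were tested there, and among calls still tested 32 were kept and 2 lost after crush, 24 and 0 in naive strains, and 12 and 5 in interactions. The cause of those losses and of the changes that follow was not tested. Members called lower after crush in C57 were 2 with log2(FPKM + 1), with upper-quartile scaling, with limma-voom and without 3 libraries together, and 0 with only the compared groups fitted. The 3 were naive DBA replicate 3, naive C57 replicate 1 and injured C57 replicate 3. Members called lower were 2 in CAST with upper-quartile scaling and 2 in DBA with that scaling or without the 3 libraries. The interaction of CAST minus C57 gave 2 higher with upper-quartile scaling. That of CAST minus DBA gave 0 higher with log2(FPKM + 0.01), log2 CPM, upper-quartile scaling and limma-voom, and 1 with no filter, with only the compared groups and without robust variance. That of DBA minus C57 gave 14 higher with limma-voom.

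Leaving out 1 library at a time gave 16 to 20 members higher and 0 to 2 lower after crush for C57, 26 to 29 and 1 for CAST, and 32 to 33 and 1 to 2 for DBA. The count lower in C57 was 2 without naive C57 replicate 2, naive DBA replicate 3 or naive DBA replicate 4 and 0 without naive C57 replicate 4. The count lower in DBA was 2 without injured DBA replicate 1 or naive DBA replicate 3. The naive counts were 4 to 7 higher and 8 to 9 lower for CAST minus C57, 1 higher and 4 to 8 lower for DBA minus C57, and 8 to 10 higher and 5 to 6 lower for CAST minus DBA. The interactions gave 2 to 5 higher and 2 lower for CAST minus C57, 14 to 21 higher and 1 lower for DBA minus C57, and 0 to 2 higher and 9 to 13 lower for CAST minus DBA. The last count higher was 0 without naive CAST replicate 3, injured DBA replicate 3 or naive DBA replicate 4.

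Same-numbered naive and injured libraries correlated between -0.173 and 0.159 over 12061 genes, so the numbers were not taken as pairs. With the replicate block, members called higher and lower after crush were 18 and 2 for C57, 29 and 1 for CAST, and 32 and 1 for DBA. The interactions with the block gave 5 higher and 2 lower for CAST minus C57, 17 and 1 for DBA minus C57, and 2 and 12 for CAST minus DBA. Depth limits the members with few reads, Ccnb1 above all, whose naive libraries held 4.3 to 11.5 estimated reads. The edgeR and DESeq2 alternatives were not run because the deposited values are FPKM.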
